A study of Mus musculus with 9 samples.

Results

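The genes of the constitutive proteasome were taken as every gene whose symbol starts with Psma, Psmb, Psmc or Psmd followed by a digit, leaving out the immunoproteasome genes Psmb8, Psmb9 and Psmb10 and symbols that mark pseudogenes. The rule found 37 of the 16537 genes in the table, from 39 transcripts, since Psmd2 and Psmd10 have 2 each. By their known roles, 7 belong to the alpha ring and 7 to the beta ring of the core particle, 6 are ATPases and 3 are other subunits of the base, 8 belong to the lid, 3 are assembly chaperones of the base, and 2 are tissue forms (Psma8 of testis and Psmb11 of thymus). The remaining gene, Psmc3ip, bears a matching symbol but encodes a partner of the meiotic recombinases and no subunit.

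The study sequenced RNA of cells sorted from the bone marrow of mice of the inbred strain FVB/NJ, in 3 groups of 3 libraries. Median LP are leukemic progenitors of PML-RAR mice in the phase labelled median, and early LP are the same cell type from PML-RAR mice in the phase labelled early. HPC are hematopoietic progenitor cells of wild-type mice at postnatal day 42. PML-RAR is the oncogenic fusion of PML and the retinoic acid receptor alpha, the hallmark of human acute promyelocytic leukemia. Not given in the sources used here are the promoter that drives it in these mice, the age of the mice with LP, the sorting markers, and whether each library is from its own animal. The p-values therefore measure the spread between these libraries, which may be technical.

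The proteasome is the barrel-shaped protease that degrades proteins tagged with ubiquitin. Its core particle is built of stacked alpha and beta rings and cuts proteins inside its chamber, and the regulatory particle, made of a base with an ATPase ring and of a lid, binds the ubiquitin chain, removes it, unfolds the substrate and feeds it into the core. Nearly every cell makes all of the constitutive subunits, and blood cell cancers that make much protein are treated with drugs that block the catalytic subunit encoded by Psmb5.

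Each library held 20.6 to 28.4 M (mega) recovered fragments. Levels across libraries are CPM, counts per 1 M counts after TMM scaling, and levels across genes are FPKM, which are per length; means carry the SD of n = 3 libraries. Cd34, the sialomucin of stem and progenitor cells, had 1.43 ± 0.307 CPM in median LP, 3.49 ± 0.291 CPM in early LP and 272 ± 32.6 CPM in HPC, and Kit, the stem cell factor receptor, 247 ± 8.80 CPM in median LP, 251 ± 0.936 CPM in early LP and 437 ± 23.1 CPM in HPC. The 7 erythroid markers summed to 8.83 to 9.88 CPM in median LP, 11.6 to 17.5 CPM in early LP and 3142 to 3584 CPM in HPC, with none at 0. The 7 markers of promyelocytes and primary granules summed to 30772 to 32972 CPM in median LP, 37253 to 42629 CPM in early LP and 13345 to 15060 CPM in HPC. Of these 7, Prtn3 alone was lower in median LP than in HPC. It had 1045 ± 47.2 CPM in median LP, 1347 ± 107 CPM in early LP and 1197 ± 121 CPM in HPC. The part of these differences in cell make-up in the results below was not tested. In bulk RNA, fewer cells of a type and less RNA per cell cannot be told apart. In 1 library of each group, median LP 1, early LP 3 and HPC 3, short transcripts were higher relative to long ones than in the rest of the group (correlation of the deviation with log2 length of -0.21, -0.16 and -0.48, in that order). The proteasome genes are short, with a median transcript of 1436 bases against 2657 bases for all genes, so their results are given below with and without these libraries.

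Most proteasome genes were slightly lower in leukemic progenitors than in normal ones, while Psmb5 alone among the catalytic subunits was higher. Of the 37 genes, 36 passed the filter on low counts and were tested, Psmb11 being the exception. Psma8, described last, passed the filter through HPC alone and so had to differ, and the counts are given for the other 35. In median LP against HPC, 24 of the 35 fell, 2 rose (Psmb5 and Psmd7) and 9 did not pass the test (edgeR's quasi-likelihood test, Benjamini-Hochberg adjusted p under 0.05 over 12837 genes). Over all genes tested, 37.7% were called lower, 36% were called higher and 73.8% were called in either direction, so the proteasome genes were called about as often as others and mostly in 1 direction. Their median log2 change was -0.24, against -0.04 over all genes. Chromosomes 8 and 15 enter the median of all genes with 0.51 each, and of the 37 genes they hold Psmd7 alone. On the other autosomes and X the medians ran from -0.15 to -0.01. The part of the chromosomes in this difference was not tested. The changes of the 35 genes ran from -0.71 to 0.47 on the log2 scale and no gene reached 2-fold, whereas 30.7% of all genes were called at 2-fold or more. The change was below 0 for 28 of the 35 genes, against 52% of all genes. The CPM of the groups did not overlap for 27 of the 35 genes, against 75.7% of all genes.

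In early LP against HPC, 17 of the 35 genes fell, 5 rose (Psmb5, Psmd7, Psmd13, Psma7 and Psmc3ip) and 13 did not pass the test, with 37.9% of all genes called lower, 35.3% called higher and 73.2% called in either direction. The median log2 change was -0.18, against -0.04 over all genes, and the groups did not overlap for 23 genes, against 74.8% of all genes. Chromosomes 8 and 15 had medians of 0.53 each, and the other autosomes and X medians of -0.18 to -0.003. The change was again below 0 for 28 of the 35 genes, against 52.1% of all genes, and 0 were called at 2-fold or more, against 29.8%. All 17 genes that fell in early LP also fell in median LP, and both comparisons use the same HPC libraries. The other 7 genes called lower in median LP were Psma4, Psma5, Psmb6, Psmc3, Psmc4, Psmc5 and Psmd5, with log2 changes of -0.17, -0.31, -0.33, -0.21, -0.23, -0.24 and -0.17 in median LP and -0.16, -0.18, -0.12, -0.06, -0.15, -0.17 and -0.07 in early LP. None of them differed past the threshold between median and early LP.

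**Figure D1:**
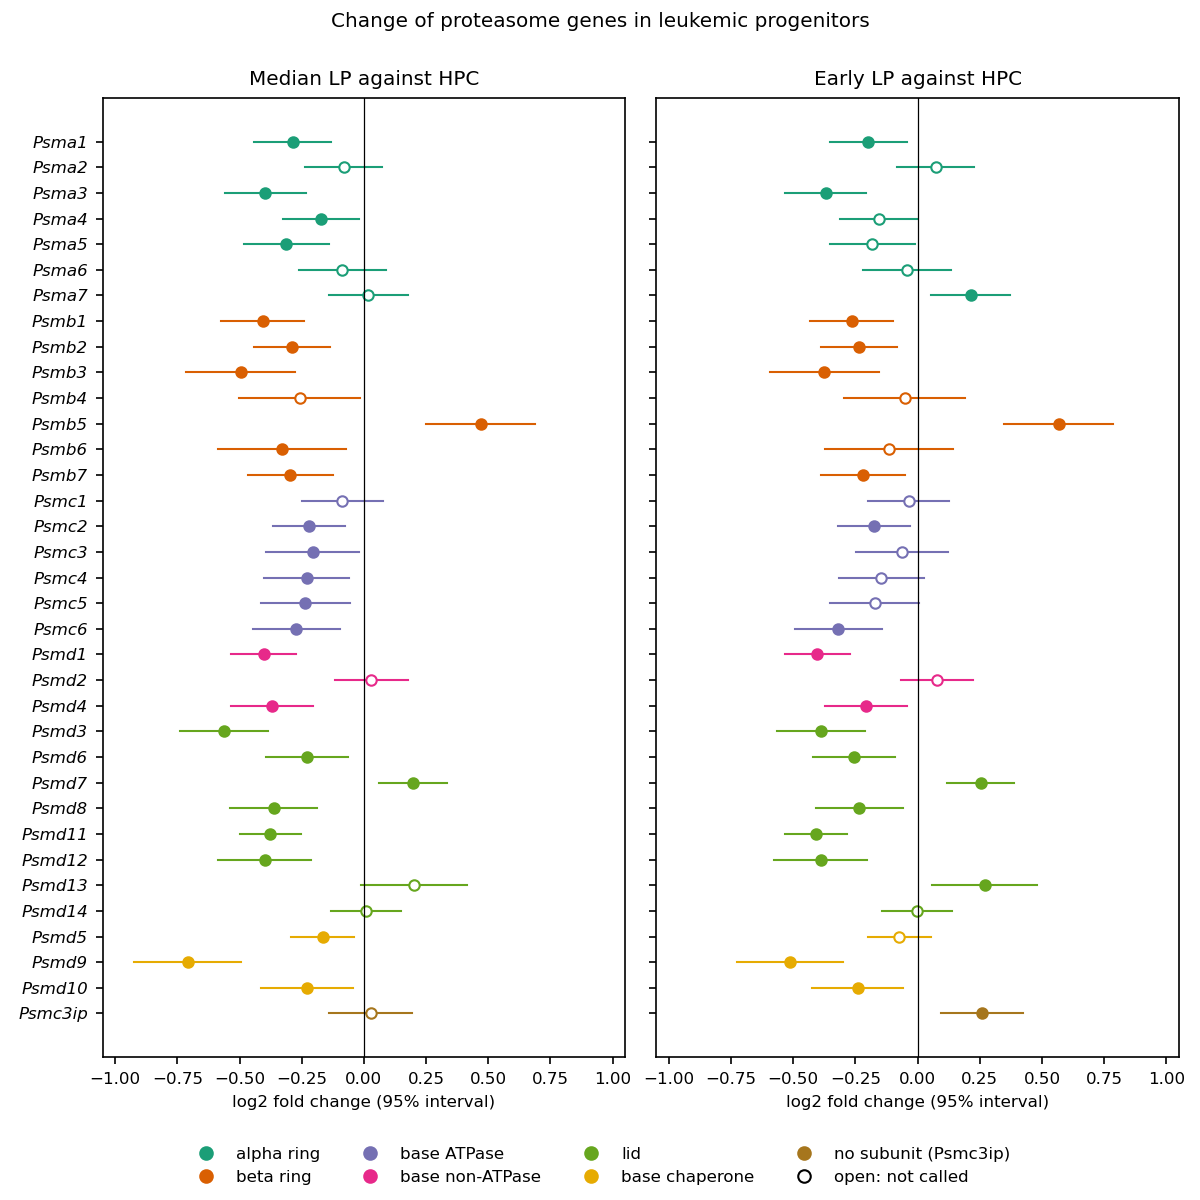
Log2 fold change (x axis) with its 95% interval for 35 proteasome genes (rows, coloured by class), in median LP against HPC on the left and early LP against HPC on the right; filled points passed the test, and Psma8 and Psmb11 are not drawn. In each panel 28 of the 35 points lie left of 0, with Psmb5 at 0.47 on the left and 0.57 on the right and Psmd9 at -0.71 on the left and -0.51 on the right as the extremes.

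These counts depend on how transcript length is handled. Over all 36 genes, Psma8 included, 25 fell in median LP and 18 fell in early LP with TMM scaling and all libraries, and the alternatives were counted over the same 36. With the length split as a block, a setting chosen after the data had been seen, 3 genes rose and 26 fell in median LP, and 5 rose and 22 fell in early LP, where 77% of all genes were called in median LP and 76.5% in early LP. Among the libraries outside the split, 2 per group, 2 rose and 21 fell in median LP, and 6 rose and 13 fell in early LP, with 72.7% of all genes called in median LP and 72.6% in early LP; inside it each group has 1 library, so no test was possible there. Offsets fitted to transcript length moved the median log2 change of all genes by -0.15 in both comparisons. Under them 1 gene rose and 29 fell in median LP and 2 rose and 28 fell in early LP, while 80.1% of all genes were called in median LP and 79.6% in early LP. The genes' median minus that of all genes was -0.13 in median LP and -0.12 in early LP, against -0.21 in median LP and -0.14 in early LP with TMM scaling. Upper-quartile scaling gave 3 genes that rose and 23 that fell in early LP, with 74.2% of all genes called. Without HPC 3, 3 genes rose and 19 fell in median LP and 6 rose and 12 fell in early LP, with 73.9% of all genes called in median LP and 74% in early LP, and the genes' median minus that of all genes was -0.14 in median LP and -0.08 in early LP. Without median LP 2, 15 genes fell in median LP (69% of all genes called), and without early LP 3, HPC 1 or HPC 2, 3 genes rose in early LP (69.1%, 69.9% and 69.5% of all genes called).

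No proteasome gene differed past the threshold between median and early LP. None of the 36 genes passed by edgeR's quasi-likelihood test, where 2.48% of all genes did (1.04% at 2-fold or more), and none did by DESeq2 or limma. At an unadjusted p under 0.05 there were 2, Psma7 and Psmc3ip, against 16.5% of all genes. The log2 change was below 0 for 29 of the 35 genes without Psma8, against 49.8% of all genes, with a median of -0.08 against 0 over all genes. The 95% interval of the log2 change ran from -0.32 to 0.12 for Psmb5, from -0.41 to 0.02 for Psmd9 and from -0.35 to 0.00 for Psmd3.

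Among the 3 catalytic subunits of the beta ring, Psmb5, which encodes the chymotrypsin-like site, moved against Psmb6 and Psmb7, which encode the caspase-like and trypsin-like sites. Psmb5 (mm10, chromosome 14, 54614120 to 54617995) had 122, 116 and 109 CPM in median LP, 117, 124 and 131 CPM in early LP, and 74.7, 77.2 and 98.8 CPM in HPC. Every LP library lay above every HPC library, and HPC 3 was the highest of its group. The gene rose by 0.47 (SE 0.10, adjusted p = 0.00114) on the log2 scale in median LP and by 0.57 (SE 0.10, adjusted p = 0.000282) in early LP, which is 1.38-fold in median LP and 1.48-fold in early LP. It was called higher under each of the 21 alternatives in both comparisons.

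Psmb6 (chromosome 11, 70525357 to 70527858) had 79.6, 74.3 and 75.2 CPM in median LP, 81.5, 92.9 and 91.4 CPM in early LP, and 84.8, 84.2 and 119 CPM in HPC. The median LP libraries lay below those of HPC, and early LP overlapped them. It fell by 0.33 (SE 0.12, adjusted p = 0.0247) in median LP, a call that held in 17 of 21 alternatives. Among those where it ended were the fits without HPC 3, where the change was -0.15, and without median LP 2 or median LP 3 (-0.30 and -0.32). In early LP the change was -0.12 (SE 0.12, adjusted p = 0.395), and 0.07 without HPC 3.

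Psmb7 (chromosome 2, 38588046 to 38643906) had 112, 110 and 110 CPM in median LP, 116, 117 and 116 CPM in early LP, and 125, 129 and 153 CPM in HPC. The HPC libraries were the highest and did not overlap with either LP group. It fell by 0.30 (SE 0.08, adjusted p = 0.00449) in median LP and by 0.22 (SE 0.08, adjusted p = 0.0229) in early LP. The early LP call held in 16 of 21 alternatives. Among those where it ended were the fits without HPC 3 (-0.12) and without any 1 of the early LP libraries (-0.21 to -0.22).

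Because the ratio of genes within a library does not depend on the scaling between libraries, Psmb5 was also set against its partners in FPKM. Psmb5 over the mean of Psmb6 and Psmb7 was 1.72, 1.64 and 1.55 in median LP, 1.53, 1.51 and 1.65 in early LP, and 0.948, 0.952 and 0.920 in HPC. Psmb5 thus stood above this mean in every LP library and just below it in every HPC library, where it lay above Psmb6 and below Psmb7. Against Psmb8, the interferon-induced subunit that takes its place in immunoproteasomes, the ratio was 1.6, 1.53 and 1.49 in median LP, 1.55, 1.45 and 1.46 in early LP, and 0.970, 1.01 and 1.00 in HPC. For the other exchanged pairs, Psmb6 over Psmb9 was 1.31 ± 0.0861 in median LP, 1.30 ± 0.0168 in early LP and 1.5 ± 0.104 in HPC, and Psmb7 over Psmb10 was 2.71 ± 0.246 in median LP, 2.41 ± 0.307 in early LP and 2.86 ± 0.179 in HPC. These ratios are descriptions with no test.

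**Figure D2:**
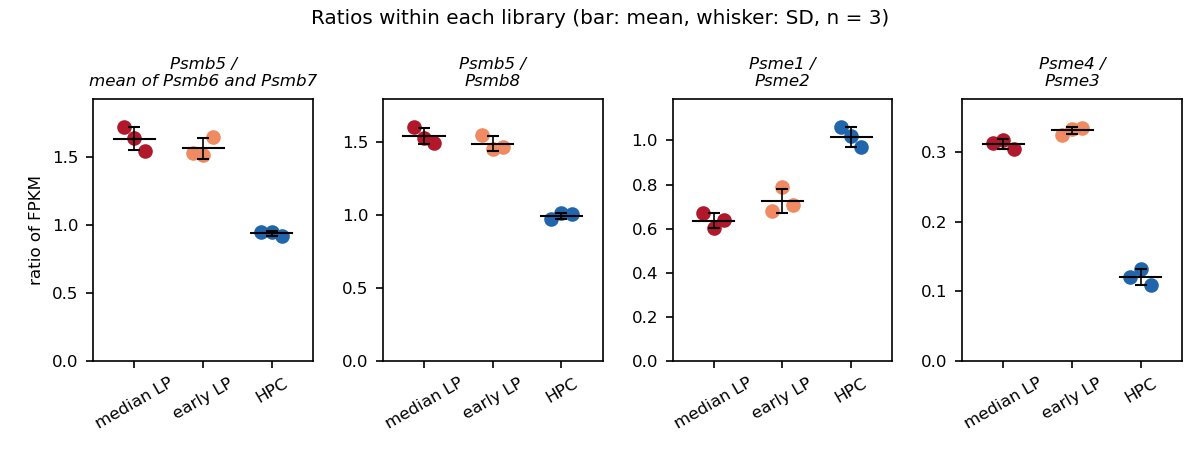
Ratios of FPKM within each library (y axis, from 0) for median LP, early LP and HPC, with points for libraries, bars for the mean and whiskers for the SD of 3 libraries. Psmb5 over the mean of Psmb6 and Psmb7 and Psmb5 over Psmb8 are higher in all LP libraries than in HPC, Psme1 over Psme2 is lower and Psme4 over Psme3 is higher.

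The promoters of Psmb5 and Psmb6, which changed in opposite directions in median LP, and of Psmd9, which fell most after Psma8, are shown because each holds the core of an antioxidant response element, the motif through which the factors Nfe2l1 and Nfe2l2 act with small Maf proteins on proteasome genes. They are the 150 bases before the annotated start, from RefSeq on GRCm38.p6, written in the direction of the gene with the TGACNNNGC match in capitals.
Psmb5, chr14:54617996-54618145, minus strand: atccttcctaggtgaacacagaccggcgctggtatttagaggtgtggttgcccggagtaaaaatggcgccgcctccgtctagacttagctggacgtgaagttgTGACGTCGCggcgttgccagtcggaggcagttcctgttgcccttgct
Psmb6, chr11:70525207-70525356, plus strand: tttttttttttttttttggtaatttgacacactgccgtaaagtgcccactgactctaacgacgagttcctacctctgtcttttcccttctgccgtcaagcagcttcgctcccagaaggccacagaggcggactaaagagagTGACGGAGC
Psmd9, chr5:123228040-123228189, plus strand: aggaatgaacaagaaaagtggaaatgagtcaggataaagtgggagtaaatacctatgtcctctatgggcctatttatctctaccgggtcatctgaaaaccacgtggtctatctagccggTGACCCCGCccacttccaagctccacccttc
The match ends 39 bases before the start in Psmb5, 1 base before it in Psmb6 and 23 bases before it in Psmd9.

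Of the 37 genes, 30 had a promoter entry, and Psma8, Psmb1, Psmb2, Psmb7, Psmc3, Psmd3 and Psmd7 had none. The start in this entry was used for the search. It lay 2129 bases from the deposited start for Psmc1, 602 bases for Psma4 and 69 bases or fewer for the others. In the 250 bases before the start, read on both strands, TGACNNNGC was found in 5 of the 30 promoters (16.7%), those of Psmb5, Psmb6, Psmc6, Psmd12 and Psmd9, and in 12.5% of the 9298 promoters of genes tested. CCAAT, the motif of NF-Y, was found in 12 (40%) against 36.8% of all. CCGGAAG, a motif of ETS factors, was found in 10 (33.3%) against 14.2%. The palindromic motif of nuclear respiratory factor 1 was found in 6 (20%) against 8.31%, and AAGATGGCG, a motif of YY1, in 0 against 1.19%. Of the 5 genes with TGACNNNGC, 1 rose and 4 fell in median LP. A match is a description of the letters and not a measured binding site.

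Of the 4 structural subunits of the beta ring, Psmb1, Psmb2 and Psmb3 fell in both LP groups. Psmb3 (chromosome 11, 97703434 to 97713500), which has no catalytic site, had 84.7, 80.6 and 80.4 CPM in median LP, 81.6, 89.5 and 95.9 CPM in early LP, and 107, 103 and 136 CPM in HPC. No LP library reached the HPC range. It fell by 0.49 (SE 0.10, adjusted p = 0.00078) in median LP and by 0.38 (SE 0.10, adjusted p = 0.00499) in early LP, in all 21 alternatives of both. Psmb1 fell by 0.41 in median LP and by 0.27 in early LP, and Psmb2 fell by 0.29 in median LP and by 0.24 in early LP, likewise in all 21 alternatives of both. Psmb4, the most abundant of the ring at 212 ± 14.1 FPKM in median LP, 251 ± 32.7 FPKM in early LP and 266 ± 42.2 FPKM in HPC, had log2 changes of -0.26 (adjusted p = 0.0521) in median LP and -0.05 (adjusted p = 0.684) in early LP that did not pass the test.

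**Figure D3:**
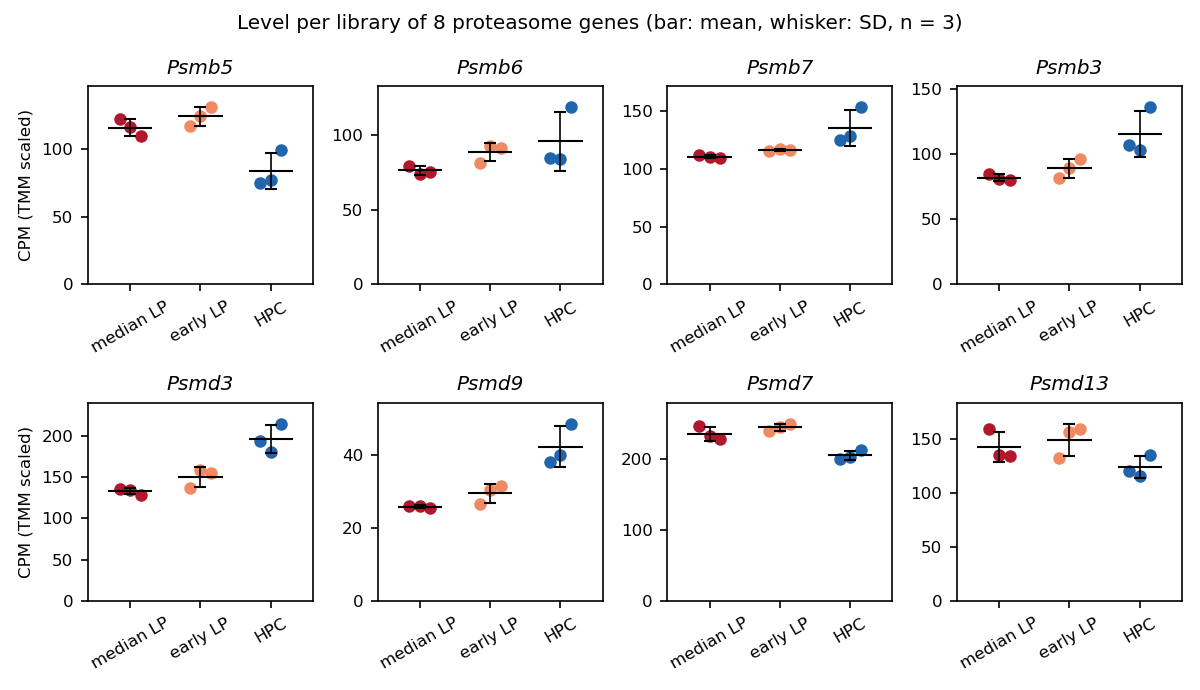
CPM after TMM scaling (y axis, from 0) of 8 proteasome genes in each library of median LP, early LP and HPC, with bars for the mean and whiskers for the SD of 3 libraries. Psmb5 is higher in all LP libraries than in any HPC library, Psmb3, Psmd3 and Psmd9 are lower, and the highest HPC point in each panel is HPC 3.

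Of the 7 subunits of the alpha ring, which gate the entry to the core, 4 fell in median LP (Psma1, Psma3, Psma4 and Psma5) and 2 fell in early LP (Psma1 and Psma3), while Psma7 rose in early LP. The median LP call of Psma4 held in 10 of 21 alternatives and the early LP call of Psma1 in 16 of 21. Psma3 had the largest change of the ring, with 144 ± 5.0 CPM in median LP, 146 ± 2.39 CPM in early LP and 189 ± 18.1 CPM in HPC, and fell by 0.40 (SE 0.07) in median LP and by 0.37 (SE 0.07) in early LP. Its locus is shared with another gene of the table, 3110056K07Rik, so its count is uncertain, and the same holds for Psma4 and AY074887. Psma7, the most abundant of the ring, had 193 ± 8.70 CPM in median LP, 221 ± 4.02 CPM in early LP and 190 ± 16.2 CPM in HPC, and the early LP libraries lay above both other groups. It rose by 0.21 (SE 0.07, adjusted p = 0.0195) in early LP, in 16 of 21 alternatives, and had a log2 change of 0.02 in median LP. Psma2 and Psma6 did not pass the test in either comparison, with log2 changes of -0.08 and -0.09 in median LP and 0.07 and -0.04 in early LP.

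The ATPases of the base, Psmc1 to Psmc6, which form the ring that unfolds substrates, changed by at most 0.32 on the log2 scale. In median LP 5 fell, by 0.21 to 0.27 on the log2 scale, and in early LP 2 fell, Psmc2 by 0.18 and Psmc6 by 0.32. Psmc1 passed in neither, with 154 ± 7.62 CPM in median LP, 159 ± 7.71 CPM in early LP and 163 ± 12.1 CPM in HPC. Psmc6 had 109 ± 10.1 CPM in median LP, 106 ± 6.07 CPM in early LP and 132 ± 7.29 CPM in HPC. The early LP call of Psmc2 held in 10 of 21 alternatives and the median LP call of Psmc3 in 9 of 21.

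Of the large scaffolds of the base, Psmd1 fell in both LP groups and Psmd2 passed the test in neither. Psmd1 fell by 0.40 (SE 0.06) in both comparisons, to 187 ± 3.13 CPM in median LP and 187 ± 6.32 CPM in early LP, against 248 ± 6.42 CPM in HPC; its locus is shared with Htr2b. Psmd2 (chromosome 16, 20651652 to 20663414), the partner scaffold that binds ubiquitin and its shuttles, had 366, 357 and 358 CPM in median LP, 368, 386 and 365 CPM in early LP, and 326, 372 and 361 CPM in HPC. The 3 groups overlapped. Its log2 change was 0.03 (95% interval -0.12 to 0.18, adjusted p = 0.698) in median LP and 0.08 (-0.07 to 0.22, adjusted p = 0.305) in early LP, and with offsets for transcript length it was -0.11 in median LP and -0.06 in early LP. Psmd4, a ubiquitin receptor, fell by 0.37 (SE 0.08) in median LP and by 0.21 (SE 0.08) in early LP.

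Genes of the lid, which holds the deubiquitinase Psmd14, moved in both directions. In median LP 5 of the 8 lid genes matched by the rule fell and 1 rose, and in early LP 5 fell and 2 rose. Not among these 8 is the lid subunit Shfm1, which rose by 0.71 in median LP and by 0.82 in early LP. Psmd3 (chromosome 11, 98682554 to 98695978), a structural subunit, had 136, 134 and 129 CPM in median LP, 137, 158 and 155 CPM in early LP, and 194, 181 and 215 CPM in HPC. All LP libraries lay below all HPC libraries. It fell by 0.56 (SE 0.08, adjusted p = 5.42e-05) in median LP and by 0.39 (SE 0.08, adjusted p = 0.000989) in early LP, in all 21 alternatives of both. Psmd11, Psmd12, Psmd8 and Psmd6 fell by 0.38, 0.40, 0.36 and 0.23 in median LP and by 0.41, 0.39, 0.23 and 0.26 in early LP.

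Psmd7 (chromosome 8, 107580380 to 107588482), the inactive partner of Psmd14 in the lid, had 246, 231 and 227 CPM in median LP, 239, 244 and 249 CPM in early LP, and 200, 202 and 212 CPM in HPC. Every LP library lay above every HPC library. It rose by 0.20 (SE 0.06, adjusted p = 0.0123) in median LP and by 0.25 (SE 0.06, adjusted p = 0.00289) in early LP. The call ended in 5 of 21 alternatives for median LP and in 2 for early LP, with log2 changes under the length offsets of 0.08 in median LP and 0.10 in early LP. It is the only proteasome gene on chromosome 8, where the median log2 change of 706 genes was 0.51 in median LP and 0.53 in early LP, above that of Psmd7, and the part of the chromosome in its change was not tested. Psmd14 itself had 152 ± 7.72 CPM in median LP, 151 ± 2.10 CPM in early LP and 151 ± 6.64 CPM in HPC, with log2 changes of 0.01 (95% interval -0.13 to 0.15) in median LP and -0.00 (-0.14 to 0.14) in early LP. The ratio of Psmd7 to Psmd14 in FPKM was 1.49 ± 0.0248 in median LP, 1.51 ± 0.0579 in early LP and 1.27 ± 0.0309 in HPC.

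Psmd13 (chromosome 7, 140882394 to 140898642), a structural lid subunit, had 159, 135 and 134 CPM in median LP, 132, 156 and 159 CPM in early LP, and 120, 116 and 135 CPM in HPC. Both LP groups overlapped HPC through HPC 3. The log2 change was 0.20 (SE 0.10, adjusted p = 0.0777) in median LP and 0.27 (SE 0.10, adjusted p = 0.0249) in early LP, and the early LP call held in 12 of 21 alternatives. It ended without early LP 2, early LP 3, HPC 1 or HPC 2 (0.22 to 0.26), and without HPC 3 the gene passed in median LP too, at 0.27.

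Of the 3 chaperones that assemble the base, all fell in median LP and Psmd9 and Psmd10 fell in early LP. Psmd9 (chromosome 5, 123228190 to 123250125), the chaperone of the Psmc3 and Psmc6 pair, had 26.1, 25.9 and 25.3 CPM in median LP, 26.6, 30.3 and 31.5 CPM in early LP, and 37.9, 40.0 and 48.5 CPM in HPC. The 3 groups did not overlap. It fell by 0.71 (SE 0.10, adjusted p = 3.86e-05) in median LP and by 0.51 (SE 0.10, adjusted p = 0.000482) in early LP, in all 21 alternatives of both. Psmd10, the ankyrin repeat chaperone known as gankyrin, fell by 0.23 (SE 0.08) in median LP and by 0.24 (SE 0.08) in early LP, and Psmd5 fell by 0.17 (SE 0.06) in median LP and had a log2 change of -0.07 (adjusted p = 0.273) in early LP. Psmc3ip, the gene that is no subunit, had 19.6 ± 0.255 CPM in median LP, 23.1 ± 0.543 CPM in early LP and 19.3 ± 1.24 CPM in HPC and rose by 0.26 (SE 0.08) in early LP; its locus is shared with Mlx.

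The tissue forms had the lowest levels. Psma8, the alpha subunit of the spermatoproteasome (chromosome 18, 14706151 to 14762299), had 0, 2 and 4 recovered fragments in median LP, 2, 5 and 4 in early LP, and 92, 128 and 128 in HPC. In CPM this is 0.0827 ± 0.0806 in median LP, 0.163 ± 0.0538 in early LP and 4.41 ± 0.749 in HPC. HPC held far more in every library, and the log2 change was -5.59 (SE 0.43) in median LP and -4.78 (SE 0.38) in early LP. Psmb11, the beta subunit of the thymoproteasome and the neighbour of Psmb5 (chromosome 14, 54625310 to 54629556), had 6 fragments in median LP, 4 in early LP and 6 in HPC over the 3 libraries of each and was not tested.

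Per length, the class medians of the core particle lay above those of the regulatory particle in all groups. The median FPKM of the alpha ring was 133 ± 9.13 in median LP, 146 ± 1.31 in early LP and 170 ± 19.7 in HPC, and that of the beta ring 123 ± 6.93 in median LP, 131 ± 2.04 in early LP and 150 ± 15.7 in HPC. The base ATPases stood at 64.5 ± 5.4 FPKM in median LP, 69.1 ± 4.47 FPKM in early LP and 78.6 ± 8.81 FPKM in HPC, the other base subunits at 66.9 ± 6.24 FPKM in median LP, 76.4 ± 6.95 FPKM in early LP and 89.8 ± 5.26 FPKM in HPC, and the lid at 62.8 ± 4.89 FPKM in median LP, 67.1 ± 4.42 FPKM in early LP and 79.5 ± 8.41 FPKM in HPC. The chaperones were lower, with medians of 16.9 ± 0.615 FPKM in median LP, 17.2 ± 0.598 FPKM in early LP and 21.1 ± 2.73 FPKM in HPC and Psmd9 as the lowest at 8.77 ± 0.464 FPKM in median LP, 10.2 ± 1.15 FPKM in early LP and 15.2 ± 2.37 FPKM in HPC. Between the highest and the lowest gene of the alpha ring, Psma7 and Psma3, the ratio of mean FPKM was 2.62 in median LP, 2.91 in early LP and 1.86 in HPC. The summed FPKM of the 14 core subunits over that of the 17 regulatory subunits matched by the rule was 1.72 ± 0.0229 in median LP, 1.80 ± 0.0535 in early LP and 1.75 ± 0.0716 in HPC, and both LP groups overlapped HPC. The 17 and the lid median leave out Shfm1, a lid subunit whose symbol does not match. It had 679 ± 34.2 FPKM in median LP, 771 ± 41.4 FPKM in early LP and 431 ± 28.6 FPKM in HPC. The ratio therefore does not describe the whole regulatory particle, and with Shfm1 it would be lower in every library.

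**Figure D4:**
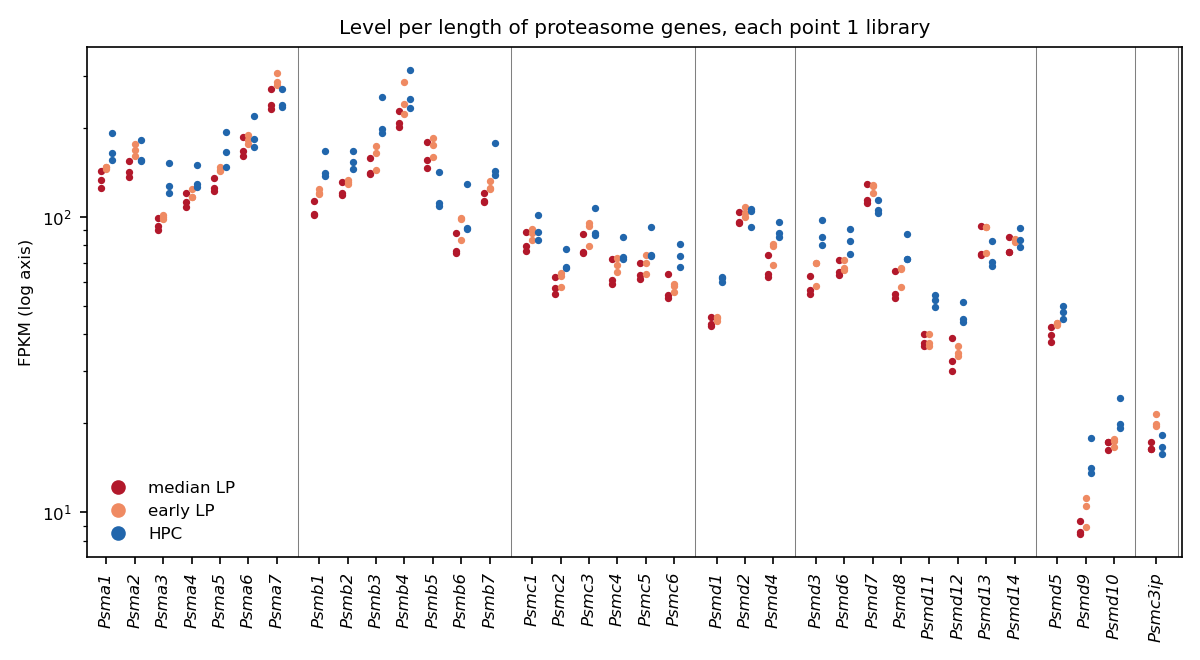
FPKM (y axis, log scale) of 35 proteasome genes in each of the 9 libraries, with vertical lines between the alpha ring, beta ring, base ATPases, other base subunits, lid, base chaperones and Psmc3ip. Alpha and beta ring genes lie above most genes of the base and lid, and Psmd9 lies lowest; the mean of HPC is the highest for most genes and the lowest for Psmb5, Psmd7 and Psmd13.

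Of 50 other genes of the pathway, in 7 lists, 10 rose, 19 fell and 21 did not pass the test in median LP, and 10 rose, 17 fell and 23 did not in early LP. The share called was thus 58% in median LP and 54% in early LP, against 73.8% of all genes in median LP and 73.2% in early LP. None passed between median and early LP. The log2 medians of these lists, given below, are descriptions. Of the 5 genes of the immunoproteasome and PA28 list, 0 rose and 2 fell in median LP (median -0.16) and 0 rose and 1 fell in early LP (median -0.02). Psmb8 and Psmb9 did not pass in either comparison, at log2 changes of -0.16 and -0.08 in median LP and -0.02 and 0.10 in early LP. Psmb10 fell by 0.29 in median LP and had a log2 change of 0.01 in early LP. Psme1, which with Psme2 forms the interferon-induced PA28 cap of the core, had 94.1, 75.7 and 84.5 CPM in median LP, 87.0, 103 and 99.6 CPM in early LP, and 151, 136 and 166 CPM in HPC. It fell by 0.83 (SE 0.10) in median LP and by 0.65 (SE 0.10) in early LP, whereas Psme2 did not pass, at -0.13 in both comparisons. The ratio of Psme1 to Psme2 in FPKM was 0.637 ± 0.0350 in median LP, 0.725 ± 0.0555 in early LP and 1.02 ± 0.0455 in HPC.

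Of the 3 genes for other caps and the inhibitor, 1 rose and 2 fell in both comparisons, with medians of -0.44 in median LP and -0.53 in early LP. Psme4, the PA200 cap of nuclear proteasomes, had 202, 206 and 200 CPM in median LP, 211, 193 and 200 CPM in early LP, and 109, 117 and 91.2 CPM in HPC, with no overlap between LP and HPC. It rose by 0.94 (SE 0.09) in median LP and by 0.93 (SE 0.09) in early LP, while Psme3, the nuclear PA28 gamma, fell by 0.44 in median LP and by 0.53 in early LP. The ratio of Psme4 to Psme3 was 0.311 ± 0.00685 in median LP, 0.331 ± 0.00506 in early LP and 0.121 ± 0.0114 in HPC. Psmf1, the inhibitor PI31, fell by 0.65 in median LP and by 0.58 in early LP. Of the 5 core assembly genes, 3 fell in both comparisons, with medians of -0.39 in median LP and -0.29 in early LP. Psmg1, Psmg2 and Psmg3 fell by 0.39, 0.45 and 0.47 in median LP and by 0.29, 0.54 and 0.44 in early LP, and Pomp and Psmg4 did not pass, at -0.18 and 0.01 in median LP.

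Of 11 genes that act with the regulatory particle, 3 rose and 3 fell in median LP (median -0.01) and 2 rose and 3 fell in early LP (median -0.07). Shfm1, the smallest lid subunit, whose symbol the rule does not match, had 212 ± 2.93 CPM in median LP, 228 ± 12.6 CPM in early LP and 129 ± 18.8 CPM in HPC and rose by 0.71 (SE 0.09) in median LP and by 0.82 (SE 0.09) in early LP. Zfand2a, an arsenite-induced protein that binds the particle, rose by 0.84 in median LP and by 0.50 in early LP. Txnl1, a thioredoxin-like protein bound to the lid, fell by 0.70 in median LP and by 0.75 in early LP, and Adrm1, a ubiquitin receptor, fell by 0.26 in median LP. Of the 9 regulators of subunit transcription, 3 rose and 3 fell in median LP (median -0.08) and 3 rose and 2 fell in early LP (median -0.12). Nfe2l1, the factor that raises proteasome genes when the proteasome is blocked, rose by 0.25 (SE 0.07) in median LP and by 0.24 (SE 0.07) in early LP, its relative Nfe2l2 fell by 0.36 in median LP and by 0.52 in early LP, and Ngly1, the glycanase that activates Nfe2l1, fell by 0.38 in median LP and by 0.40 in early LP. Mafg, a small Maf partner, rose by 0.81 in median LP and by 0.59 in early LP, and Bach1, a repressor at the same elements, rose by 0.55 in median LP and by 0.33 in early LP.

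Of the 6 genes for ubiquitin and its activation 2 rose and 2 fell in both comparisons, with medians of -0.04 in median LP and 0.01 in early LP. Ubb, a polyubiquitin gene, rose by 0.33 in median LP and by 0.44 in early LP, while Rps27a, which encodes ubiquitin fused to a ribosomal protein, fell by 0.56 in median LP and by 0.55 in early LP. Uba1, the main activating enzyme, fell by 0.27 in median LP and by 0.20 in early LP. Of 11 shuttle and segregase genes, 1 rose and 4 fell in median LP (median -0.09) and 2 rose and 4 fell in early LP (median -0.11). Among the shuttles, Ubqln1, Ubqln4 and Rad23b fell in both comparisons and Ubqln2 rose by 0.40 in median LP and by 0.43 in early LP. Vcp, the segregase that pulls substrates from complexes, had a log2 change of 0.07 (adjusted p = 0.298) in median LP and rose by 0.19 in early LP.

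**Figure D5:**
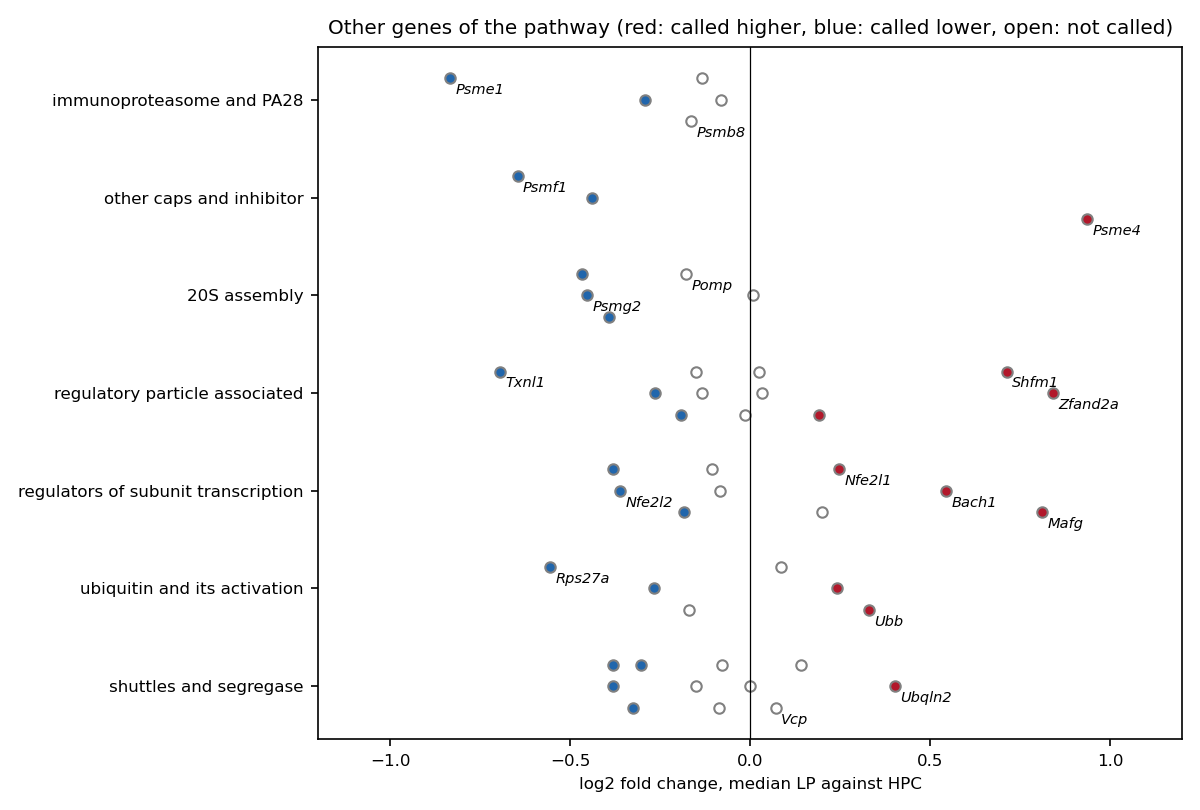
Log2 fold change in median LP against HPC (x axis) of 50 other genes of the pathway, each point 1 gene, in 7 lists (rows); red points were called higher, blue points lower and open points were not called. Psme4 at 0.94 and Psme1 at -0.83 are the extremes.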

How the data were processed

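The deposited table gives, per the file headers, transcript length, FPKM and estimated counts for each of 9 libraries of total RNA; both units were made by the authors. The submitters' processing notes name TopHat2 2.0.6 and mm10; quantifier, annotation and strandedness are not given in the sources used. Low values of the deposited estimated counts are multiples of a step of 0.867 to 1.23 per library (90.3 to 91.6% whole within 0.05), and division by it gave recovered fragments. Estimated counts were rounded and summed by gene. The test was edgeR 4.0.16 (R 4.3.3, quasi-likelihood, TMM, filterByExpr, all libraries in 1 fit), two-sided, with Benjamini-Hochberg adjustment over 12837 genes; it was tested on simulated data. Coordinates are the deposited mm10 ones, counted from 1. The proteasome genes and lists were chosen with earlier results of these data known. Library values in full were given for the 4 highest and 4 lowest changes in median LP and the 3 catalytic subunits; up to 4 genes of each list were to be named by smallest adjusted p, and others were named after their values were seen. Alternatives were DESeq2 1.42.0, limma 3.58.1, other scalings, filters, blocks and leaving out each library.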

Additional observations from a re-analysis of the deposited data

How the results depend on the processing

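In median LP against HPC, 1 gene rose under upper-quartile scaling, limma on log2(FPKM + 0.1) and log2(FPKM + 1), length offsets, and length offsets with the replicate block, and the median log2 change was -0.33, -0.31, -0.31, -0.32 and -0.32. The share of all genes called was 74.8%, 74%, 74.2%, 80.1% and 79.2%, in that order. Leaving out 1 library gave 2 to 3 genes that rose, 15 to 24 that fell and medians of -0.27 to -0.17, with 69% to 73.9% of all genes called. In early LP against HPC, upper-quartile scaling gave 3 that rose and a median of -0.25, length offsets 2 that rose, 28 that fell and -0.31, and length offsets with the replicate block 1, 28 and -0.31. Of all genes, 74.2%, 79.6% and 78.5% were called under these 3 settings, in that order. Leaving out 1 library gave 3 to 6 that rose, 12 to 18 that fell and medians of -0.20 to -0.11, with 68.5% to 74% of all genes called. Outside the length split the medians were -0.19 in median LP and -0.12 in early LP. With the longest transcript only, the median FPKM was 43.9 in median LP, 45.2 in early LP and 61.5 in HPC for the base subunits other than ATPases, and 13.6 in median LP, 14.01 in early LP and 17.7 in HPC for the base chaperones. The cause was not tested, except that fewer transcripts enter the last values. The longest Psmd2 transcript had 0.58 FPKM in median LP, 0.59 in early LP and 0.12 in HPC, against 97.9, 103 and 101 for the shorter form. With the longest alone, Psmd1 is the median of the base subunits other than ATPases. The chaperone median is then the longest Psmd10 transcript. No called result changed direction under these alternatives. Without Psma8, which had to differ, 14 of the 24 genes lower in median LP, 11 of the 17 lower in early LP and Psmb5 kept their calls in every alternative.

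With the replicate number as a block, 2 genes rose and 23 fell in median LP, 5 rose and 17 fell in early LP, and 0 passed between LP groups. Of all genes, 72.1%, 71.7% and 1.5% were called, in that order. Same-numbered libraries of different groups deviated with correlations of -0.165 to 0.0914, against -0.176 to 0.183 for libraries of different numbers. Same-numbered libraries were thus no more alike, but with 3 libraries per group these values cannot exclude a pairing. With 3 libraries per group, log2 changes under about 0.15 mostly did not pass the test, and Psma8 and Psmb11 rest on few fragments.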
